A study of Mus musculus with 198 samples.

Results

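The hearts of control mice were compared with 8 other tissues of the same animals, which were skin, subscapular fat, gonadal fat, lung, kidney, liver, spleen and bone marrow. A heart gene is here a gene whose read count was higher in heart than in each of the 8 tissues, taken one at a time and paired by mouse, at an adjusted p below 0.05 each time. By this rule 1079 of the 17965 genes tested (6.01%) were heart genes, out of 56332 genes in the deposited table. The hearts were 11 of the 12 from control mice, among 198 libraries in the series. The heart of control mouse 22 was left out because its cardiomyocyte genes were low: 12 cardiomyocyte markers summed to 585 CPM in it, against 5859 to 11310 CPM in the other 11 hearts, where CPM is the count scaled to the size of its library by the TMM method. Its white adipocyte markers summed to 982 CPM, against 19.5 to 73.3 CPM, and its brown adipocyte markers to 592 CPM, against 21.1 to 55.4 CPM. With that heart kept, 949 genes met the rule.

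All mice were C57BL/6 and were kept for 17 weeks on 1 of 2 treatments. The anti-PAPP-A group held 10 mice, 5 of each sex, that received an antibody against PAPP-A, a secreted metalloproteinase that cleaves insulin-like growth factor binding proteins. The control group held 12 mice, 6 of each sex, that received control treatment. Stranded total RNA libraries were made from whole tissue, so a lower level in a tissue can come from fewer cells of a type or from less RNA per cell, which cannot be told apart. The age of the mice and the heart chambers in each sample are not stated in the sources used here.

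Control libraries held 4138419 to 16555811 counts (median 8460495.5), and 9 features, among them the mitochondrial ribosomal RNAs mt-Rnr1 and mt-Rnr2, Lars2 and Gm42418, took 47.4% to 98.3% of them. Outside these features the 12 control hearts held 554004 to 3709743 counts. All 12 cardiomyocyte markers were heart genes. The lung of control mouse 68 stood apart from the other lungs, with a lung epithelium marker mean of 0.30 on the log2(CPM + 1) scale against a lung median of 7.59, and with 1073 CPM of white adipocyte markers. Without it 1072 genes met the rule. Subscapular fat was uneven: its 12 skeletal muscle fibre markers summed to 1.49 CPM in the lowest library, 331 CPM at the median and 13530 CPM in the highest, and its 6 brown adipocyte markers to 3.99, 153 and 2149 CPM.

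The heart pumps through the shortening of cardiomyocytes, in which thick filaments of myosin pull on thin filaments of actin within sarcomeres bounded by Z discs. Calcium enters through channels of the cell membrane, releases more calcium from the sarcoplasmic reticulum, binds troponin on the thin filament and is pumped back between beats. The ATP for this comes almost wholly from mitochondria, which burn fatty acids above all, and mouse ventricles use a myosin heavy chain different from the slow one that is dominant in adult human ventricles.

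The comparison with each tissue called many genes. Higher in heart were 33.5% of the genes tested against skin, 15% against subscapular fat, 25.4% against gonadal fat, 24% against lung, 24.4% against kidney, 29.5% against liver, 35.1% against spleen and 39.4% against bone marrow. Lower in heart were 29.4%, 13.8%, 27.8%, 28.7%, 25.4%, 24.8%, 32.9% and 38.3% in the same order of tissues. Subscapular fat thus gave the fewest calls in both directions. The margin of a gene is the smallest of its 8 heart-minus-tissue log2 fold changes, and the tissue that gives it is its nearest tissue. The margin was at least 1 (2-fold) in 583 heart genes (3.25% of the genes tested) and at least 3 (8-fold) in 170 (0.946%). At the edge of the rule, Ecsit and Cdc23 were inside with largest adjusted p-values of 0.0494 and 0.0498, and Mrpl30 and Dtna were outside with 0.0501 and 0.0513.

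Heart genes took 38.5% to 53.2% of the counts outside the 9 abundant features in hearts, with a median of 50.3%. Their median share was 4.41% in skin, 14.4% in subscapular fat, 6.68% in gonadal fat, 6.77% in lung, 14.5% in kidney, 6.24% in liver, 5.89% in spleen and 8.25% in bone marrow. The genes were chosen as higher in these same hearts, so a larger share in heart follows from that choice. The same holds for the 170 genes below. Heart genes other than the mitochondrially encoded ones took 33% at the heart median. The 13 proteins encoded by mitochondrial DNA took 18.3% of such counts at the heart median, and the 170 genes with a margin of at least 3 took 18.6%, against 0.815% in subscapular fat and 0.336% in lung. In 173 heart genes (16.0% of them) the lowest of the 11 hearts lay above all 96 control libraries of the other tissues. Over all genes tested the count was also 173, so every such gene was a heart gene. Protein-coding genes were 89.6% of heart genes and 79.7% of the genes tested.

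Subscapular fat was the nearest tissue of 349 heart genes, kidney of 224, lung of 153, liver of 99, skin of 73, gonadal fat and bone marrow of 62 each and spleen of 57. Among the 170 genes with a margin of at least 3, subscapular fat was nearest for 95, lung for 37 and kidney for 16. A further 891 genes were higher in heart than in 7 of the 8 tissues, and the comparison that they missed was subscapular fat for 384, lung for 135 and kidney for 111. With subscapular fat left out, 1463 genes (8.14% of those tested) were higher in heart than in the other 7.

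**Figure D1:**
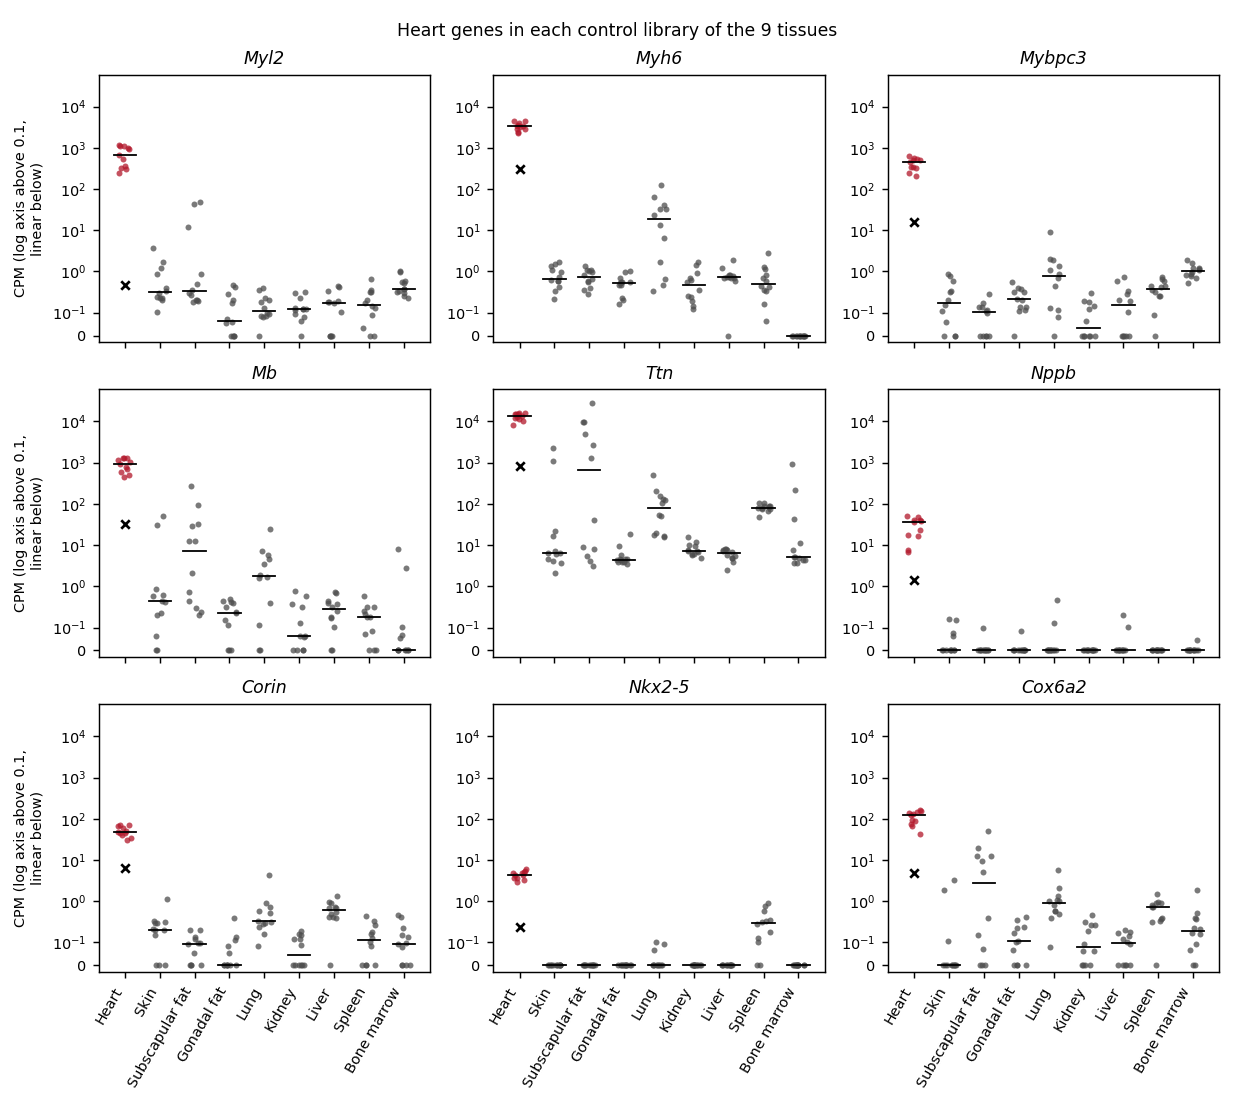
Levels of 9 heart genes in every control library. Each point is 1 library, the horizontal bar is the tissue median, red points are the 11 hearts, the cross is the heart of mouse 22, and the vertical axis gives CPM, logarithmic above 0.1 and linear below. Myl2 was at 246 to 1165 CPM in the 11 hearts, above every library of the other tissues, while Ttn reached 28650 CPM in 1 subscapular fat library.

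The largest margin belonged to Myl2, the regulatory light chain of ventricular myosin, on chromosome 5 at 122100951 to 122113472 (mm10). Myl2 was at 246, 668 and 1165 CPM in the lowest, median and highest heart, against 0.179, 0.327 and 48.0 CPM in subscapular fat, its nearest tissue. The groups did not overlap, and the log2 fold change was 9.46 ± 1.24 (SE, edgeR, adjusted p = 3.94e-05), higher in 11 of 11 mice. Myl3, the essential light chain of the same myosin, followed with 123, 318 and 574 CPM in heart, against 0, 0.275 and 22.0 CPM in subscapular fat (log2 fold change 9.18 ± 1.13, SE, edgeR adjusted p = 2.06e-05). In both genes the median fat library was near 0.

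Myh6, the fast alpha myosin heavy chain, was at 2310, 3341 and 4546 CPM in heart, against 0.336, 18.4 and 122.6 CPM in lung, its nearest tissue (log2 fold change 8.43 ± 0.97, SE, edgeR adjusted p = 2.38e-06). In all 12 bone marrow libraries Myh6 was at 0. The slow beta chain Myh7 was at 31.9, 121 and 165 CPM in heart and 0.237, 3.82 and 6.12 CPM in lung (log2 fold change 4.89 ± 0.35, SE, edgeR adjusted p = 9.56e-09). In subscapular fat Myh7 reached 218 CPM, above every heart, with a median of 0.0981 CPM (log2 fold change 7.29 ± 1.63, SE, edgeR adjusted p = 0.0034). The Myh7 call was lost without pairing by mouse, where its smallest log2 fold change was 1.62. Its largest adjusted p over the 8 tissues was then 0.289 (edgeR), and the call was also lost in male mice alone (0.31). Per kilobase of exon, Myh6 was 96.3% to 98.9% of the sum of Myh6 and Myh7 in the 11 hearts, so the alpha chain was the dominant one in each of them. The antisense transcript Mhrt, which overlaps Myh7, was a heart gene too, at 6.45, 10.3 and 22.2 CPM in heart and 0, 0.0949 and 0.619 CPM in lung. Without a stated strand setting its reads and those of Myh7 cannot be told apart, and reads of the near-identical myosin, actin and globin genes can be split between copies.

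Mybpc3, cardiac myosin binding protein C, had bone marrow as its nearest tissue, with 209, 456 and 639 CPM in heart against 0.517, 1.03 and 1.90 CPM in marrow (log2 fold change 8.47 ± 0.27, SE, edgeR adjusted p = 6.78e-15). Nppb, which encodes B-type natriuretic peptide, was low by comparison but close to absent elsewhere. Nppb was at 6.83, 35.98 and 51.9 CPM in heart, against 0, 0 and 0.464 CPM in lung (log2 fold change 8.75 ± 0.38, SE, edgeR adjusted p = 6.17e-11), and every kidney and spleen library was at 0. Mb, the oxygen store myoglobin, was at 456, 935 and 1300 CPM in heart against 0.198, 7.24 and 278 CPM in subscapular fat (log2 fold change 7.88 ± 1.45, SE, edgeR adjusted p = 0.000786).

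Also among the 15 largest margins were Lrrc10 (7.80), a cardiac leucine-rich repeat protein, and Pln (7.80), phospholamban, the inhibitor of the calcium pump. The thin filament genes Actc1 (7.66), Tnni3 (7.54), Tnnc1 (7.49) and Tnnt2 (7.15) followed with the giant spring protein Ttn (7.30). Ptgds (7.37) makes prostaglandin D. Mov10l1 (7.26) is best known in mice as a helicase of the piRNA pathway of germ cells. Its heart level of 3.49 to 10.9 CPM lay above all other control libraries, and 4 of the 8 tissues were at 0 throughout. Ptgds varied more than the rest among hearts, from 3.23 to 64.6 CPM.

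Ttn overlapped between heart and subscapular fat. Its heart levels were 8126, 13360 and 16140 CPM and its subscapular fat levels 3.16, 665 and 28650 CPM, so 1 fat library exceeded every heart. The log2 fold change against subscapular fat was 7.33 ± 2.36 (SE, edgeR adjusted p = 0.03), and the call was lost without pairing by mouse (adjusted p = 0.347), in 1 fit over all 9 tissues (0.0537), with the heart of mouse 22 kept (0.084), in female mice alone (0.0801) and in male mice alone (0.245). Against spleen, where Ttn was at 48.3 to 106 CPM, the log2 fold change was 7.30 ± 0.25 (SE, edgeR adjusted p = 4.5e-15).

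The 4 promoters below belong to genes with margins of 6.82 to 8.75 and are shown because they hold motifs found in a larger share of the promoters of the strongest heart genes than of all promoters. Each is the 250 bases before the RefSeq start (GRCm38.p6), written 5′ to 3′ on the strand of the gene, with matches in capitals. Mybpc3 (chr2:91117894-91118143, plus strand) holds a MEF2 consensus match and GATAAG, Myoz2 (chr3:123034988-123035237, minus strand) holds GATAAG and a MEF2 match near the start, Casq2 (chr3:102086165-102086414, plus strand) holds a MEF2 match, and Nppb (chr4:147985650-147985899, plus strand) holds the M-CAT motif CATTCC on the opposite strand and TATAAA.
Mybpc3: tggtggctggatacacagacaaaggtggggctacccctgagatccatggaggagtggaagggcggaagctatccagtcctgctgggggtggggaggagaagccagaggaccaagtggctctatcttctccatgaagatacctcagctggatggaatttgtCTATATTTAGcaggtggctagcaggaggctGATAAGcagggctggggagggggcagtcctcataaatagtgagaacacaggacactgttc
Myoz2: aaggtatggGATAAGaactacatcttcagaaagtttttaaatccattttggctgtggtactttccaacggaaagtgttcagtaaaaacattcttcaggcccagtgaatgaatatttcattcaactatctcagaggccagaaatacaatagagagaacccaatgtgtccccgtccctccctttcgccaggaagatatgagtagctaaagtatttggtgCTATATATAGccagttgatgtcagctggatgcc
Casq2: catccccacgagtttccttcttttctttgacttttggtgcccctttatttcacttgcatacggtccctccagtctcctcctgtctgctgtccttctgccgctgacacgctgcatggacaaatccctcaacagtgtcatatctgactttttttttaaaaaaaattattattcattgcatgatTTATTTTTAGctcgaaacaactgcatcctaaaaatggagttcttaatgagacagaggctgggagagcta
Nppb: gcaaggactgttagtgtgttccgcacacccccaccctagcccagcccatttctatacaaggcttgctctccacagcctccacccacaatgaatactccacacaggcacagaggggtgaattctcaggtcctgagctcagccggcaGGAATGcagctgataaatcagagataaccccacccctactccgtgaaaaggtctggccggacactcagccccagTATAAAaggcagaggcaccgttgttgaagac

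The promoter table held 124 of the 170 genes with a margin of at least 3 and 11466 of the tested gene names. Both strands were searched, apart from TATAAA, which was searched on the gene's strand only. A match to the MEF2 consensus was in 16.9% of the 124 promoters, in 3.53% of 764 heart gene promoters and in 1.86% of the 11466. The CArG box was in 5.65%, 2.23% and 1.21%, GATAAG in 10.5%, 5.63% and 4.81%, CATTCC in 17.7%, 10.7% and 10.9%, AAGGTCA in 5.65%, 4.19% and 2.97%, and TATAAA in 10.5%, 4.06% and 4.78%. Over all 27025 promoters in the table these shares were 3.01% for MEF2, 1.40% for the CArG box, 6.60% for GATAAG, 12.6% for CATTCC, 4.05% for AAGGTCA and 8.12% for TATAAA. MEF2 and CArG matches were in 6 and 5 of 40 promoters of the contractile and calcium heart genes, and in 0 of 25 promoters of the respiratory chain and TCA cycle heart genes. The MEF2 and TATA motifs can overlap, and a match describes letters only.

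The cardiac myosin genes also carry microRNAs in their introns, which these libraries did not measure as mature RNAs. They are shown because the 3 host genes were all heart genes, with margins of 8.43 for Myh6, 4.89 for Myh7 and 4.78 for Myh7b. Seeds (bases 2 to 8) are in capitals. The arms from Myh6 (chr14:54949072-54949093, minus strand) and Myh7 (chr14:54975710-54975731, minus strand) share the seed UAAGACG, and that from Myh7b (chr2:155622893-155622913, plus strand) has UAAGACU.
mmu-miR-208a-3p: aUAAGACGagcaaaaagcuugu
mmu-miR-208b-3p: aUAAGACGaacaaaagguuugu
mmu-miR-499-5p: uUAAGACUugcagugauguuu

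The contractile lists were almost wholly heart genes. Of the thick filament list 11 of 13 tested members met the rule, of the thin filament list 9 of 9, of the Z disc and costamere list 18 of 20 and of the calcium handling list 14 of 17, beside 6.01% of all genes tested. Their median margins were 6.25, 5.61, 4.62 and 3.89, while 13.4% of all genes tested had a margin above 0. No member of these lists was lower in heart than in any of the 8 tissues. Myl7 and Myl4, the atrial light chains, were the thick filament members outside the rule. In the thin filament list, Tpm1, the main cardiac tropomyosin, was at 335, 688 and 1013 CPM in heart and 6.74, 21.1 and 641 CPM in subscapular fat, so its groups overlapped while the log2 fold change was 4.73 ± 0.87 (SE, edgeR adjusted p = 0.000778). Lmod2, a leiomodin that lengthens thin filaments, was at 24.1 to 55.1 CPM in heart against 0 to 16.1 CPM in subscapular fat.

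**Figure D2:**
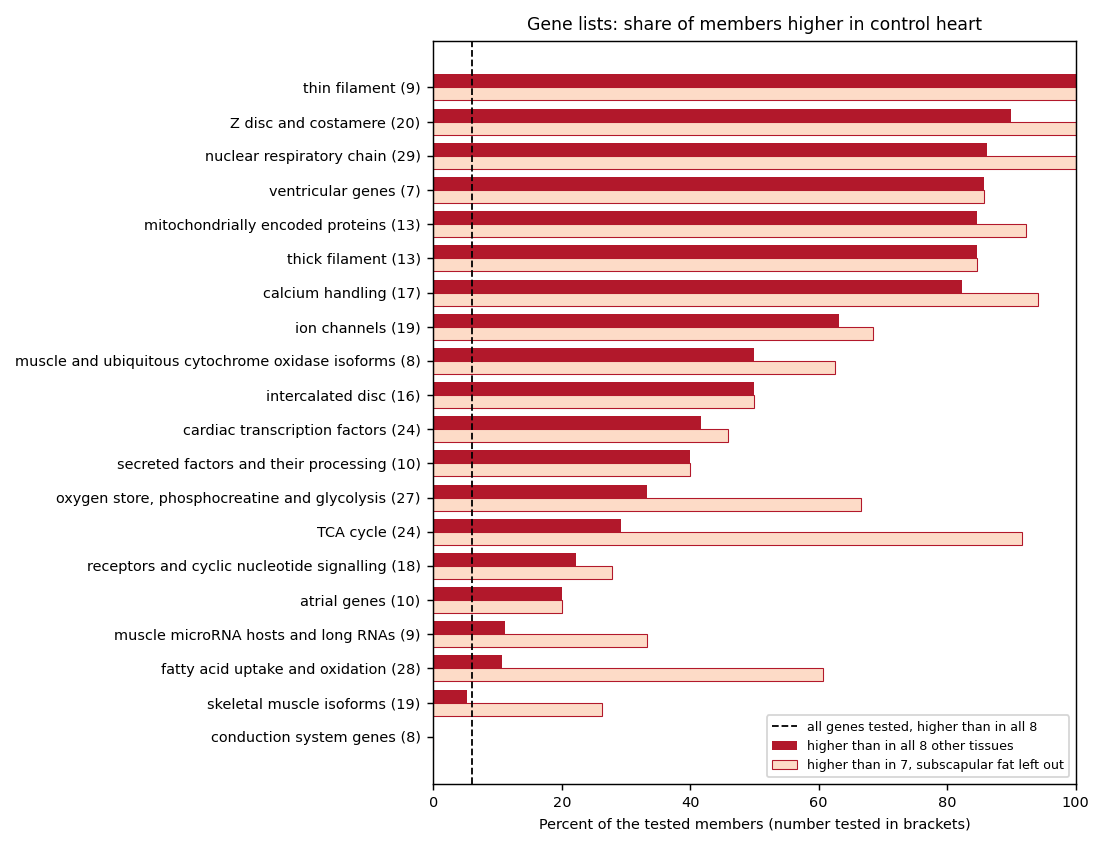
Share of the tested members of each list that met the rule in control hearts (red) and that were higher in heart than in the 7 tissues other than subscapular fat (pale). The dashed line is the 6.01% of all genes tested, and the fatty acid and TCA cycle lists stand out by the distance between their bars.

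At the Z disc, Myoz2 (margin 6.82), Actn2 (6.70), Hspb7 (6.37), Ankrd1 (5.63), Fhl2 (5.63) and Tcap (5.37) led. Myoz2 tethers calcineurin, Actn2 cross-links actin, Hspb7 is a small heat shock protein, and Ankrd1 and Fhl2 are stress-responsive partners of titin. Fhl2 was at 83.7, 185 and 309 CPM in heart and 1.55, 3.47 and 5.33 CPM in kidney, without overlap (log2 fold change 5.63 ± 0.25, SE, edgeR adjusted p = 2.49e-12). Xirp2 and Myot, which skeletal muscle also uses, missed the rule against subscapular fat alone. Xirp2 was at 113, 246 and 326 CPM in heart and 0, 17.4 and 803 CPM in subscapular fat (log2 fold change 6.22 ± 2.34, SE, edgeR adjusted p = 0.0594).

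For calcium, Ryr2, the release channel of the sarcoplasmic reticulum, was at 594, 722 and 893 CPM in heart and 0.95, 8.08 and 32.4 CPM in lung (log2 fold change 6.85 ± 0.53, SE, edgeR adjusted p = 2.52e-08). Atp2a2, the pump that refills the store, was at 1182, 1908 and 2473 CPM in heart and 34.4, 56.3 and 72.6 CPM in kidney (log2 fold change 5.03 ± 0.19, SE, edgeR adjusted p = 2.26e-13). Neither gene overlapped with any other control library. Its inhibitor Pln was at 205, 718 and 1084 CPM in heart and 1.05, 3.65 and 16.7 CPM in lung (log2 fold change 7.80 ± 0.42, SE, edgeR adjusted p = 4.61e-10). Casq2, which buffers calcium in the store, had a margin of 7.0, Hrc, a histidine-rich calcium-binding protein, 5.84, and Jph2, which holds the store to the cell membrane, 4.67. Trdn, Jph1 and Sln did not pass against every tissue.

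Cardiac and skeletal members of the striated muscle protein families differed in level between heart and subscapular fat. Per kilobase of exon, the median in heart was 194 CPM for Tnni3 and 0.112 CPM for Tnni2, the fast skeletal troponin I. The 12 subscapular fat libraries had medians of 0.0782 and 11.2 CPM per kb for the same genes. Tnni3 was 99.8% to 100% of the summed troponin I genes in each heart, and Tnnt2 98.7% to 99.7% of the summed troponin T genes. In lung Tnnt2 made up 72.2% of troponin T at the median, and in subscapular fat 0.0365%. Atp2a2 was at 314 CPM per kb at the heart median and its skeletal relative Atp2a1 at 0.0488, while the medians in subscapular fat were 5.25 and 12.0. Ryr2 stood at 25.1 CPM per kb in heart and Ryr1 at 0.0044. The cardiac actin Actc1 (median 579 CPM per kb) and the skeletal actin Acta1 (11) were both present in heart, and their coding sequences are nearly identical.

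**Figure D3:**
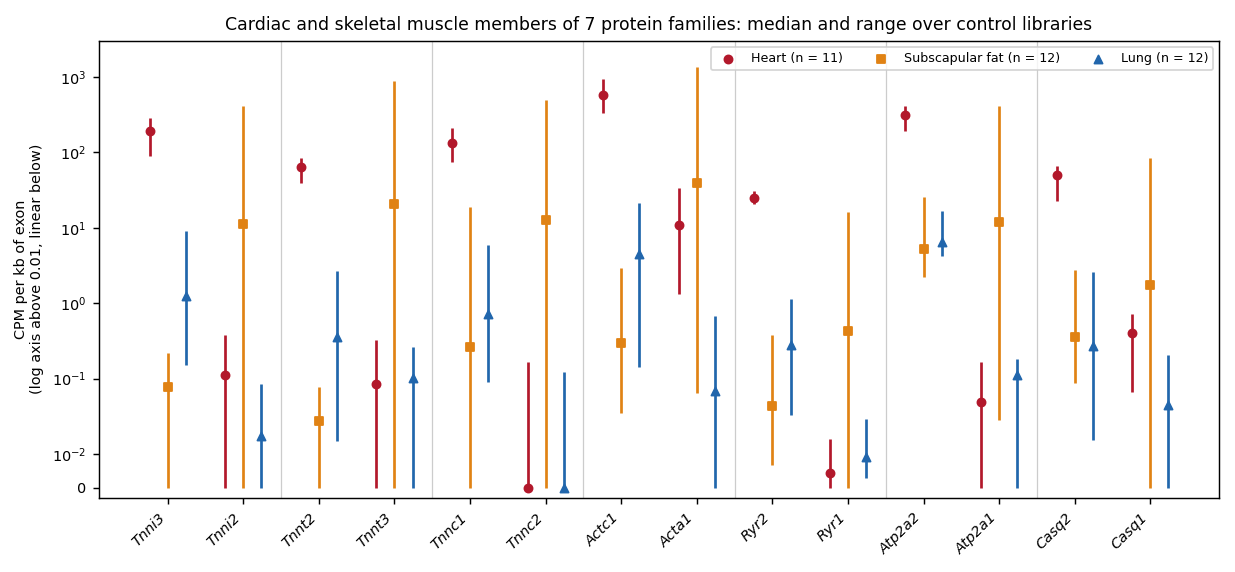
Cardiac and skeletal members of 7 families in heart, subscapular fat and lung. Symbols are medians and lines run from the lowest to the highest control library, in CPM per kilobase of exon on an axis that is logarithmic above 0.01. Heart medians of the cardiac members lie between 25.1 and 579 CPM per kb.

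Of 19 tested skeletal muscle isoform genes 1 was a heart gene (5.26%), close to the 6.01% of all genes tested. Lower in heart than in subscapular fat were 10 of the 19, beside 13.8% of all genes tested. The heart gene was Trim63, the muscle ubiquitin ligase MuRF1, at 13.1, 19.5 and 26.8 CPM in heart and 0.194, 1.03 and 20.3 CPM in subscapular fat (log2 fold change 3.76 ± 0.61, SE, edgeR adjusted p = 0.000299). Acta1 was at 2.06, 17.0 and 52.1 CPM in heart and 0.099, 60.5 and 2087 CPM in subscapular fat, a spread too wide for a call (log2 fold change 0.75 ± 2.38, SE, edgeR adjusted p = 0.861).

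Ion channels met the rule in 12 of 19 tested members, beside 6.01% of all genes tested, with a median margin of 1.72. The potassium channels Kcnj3 and Kcnj5, which together form the acetylcholine-gated channel, had margins of 5.34 and 5.32, with lung nearest. Kcnd2 and its partner Kcnip2, which carry the transient outward current, had margins of 5.22 and 4.85. Chrm2, the muscarinic receptor that opens the Kcnj3 and Kcnj5 channel through G proteins, was at 8.39, 31.6 and 66.6 CPM in heart against 0.237, 3.04 and 6.34 CPM in lung (log2 fold change 3.62 ± 0.35, SE, edgeR adjusted p = 3.54e-07). Cacna1g and Cacna1h, T-type calcium channels, passed against 6 and 7 tissues.

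Genes of the intercalated disc were a mixed list, with 8 of 16 meeting the rule, beside 6.01% of all genes, and a median margin of 0.54. Ctnna3 (margin 4.73), Popdc2 (4.63) and Bves (3.98) were far above other tissues. Gja1, the main gap junction protein of ventricles, was at 28.5, 57.5 and 67.1 CPM in heart and 7.73, 18.8 and 83.4 CPM in skin, with overlap (log2 fold change 1.11 ± 0.28, SE, edgeR adjusted p = 0.00202). The desmosome genes Dsp and Jup were lower in heart than in skin. Dsp was at 152, 244 and 341 CPM in heart and 483, 721 and 1491 CPM in skin (log2 fold change -1.68 ± 0.20, SE, edgeR adjusted p = 7.11e-07), and it was higher in heart than in the other 7 tissues.

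Among secreted factors and their processing, 4 of 10 tested members were heart genes, beside 6.01% of all genes: Nppb, Nppa, Corin and Vegfb. Bmp10, with a heart mean of 103 CPM, did not pass the low count filter and was not tested. Corin is the membrane protease that cuts the precursor of atrial natriuretic peptide. Corin was at 29.8, 47.8 and 72.5 CPM in heart and 0, 0.619 and 1.34 CPM in liver, its nearest tissue (log2 fold change 6.33 ± 0.22, SE, edgeR adjusted p = 1.61e-15). Vegfa, a growth factor for blood vessels, was at 21.9, 38.5 and 49.2 CPM in heart and 8.55, 60.6 and 76.3 CPM in lung, and the difference did not pass (log2 fold change -0.45 ± 0.25, SE, edgeR adjusted p = 0.142). Of 18 receptor and cyclic nucleotide genes 4 met the rule, beside the same 6.01%: Chrm2, Rgs6, Pde3a and Ednra. The median margin of the list was -0.40.

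Of 24 tested cardiac factors 10 were heart genes, beside 6.01% of all genes. They were led by Smyd1 (margin 5.38), a muscle histone methyltransferase, Myocd (4.44), the coactivator of serum response factor, Tbx20 (3.66) and Nkx2-5 (3.42). Nkx2-5, a homeobox gene needed to form the heart, was at 2.86, 4.41 and 5.94 CPM in heart and 0, 0.301 and 0.905 CPM in spleen, its nearest tissue (log2 fold change 3.42 ± 0.29, SE, edgeR adjusted p = 3.15e-09). In 6 of the 8 tissues every Nkx2-5 count was 0, so folds against those are set by the prior count. Gata4 (margin 1.75, liver nearest) and Gata6 (0.81, lung nearest) were heart genes by smaller steps. Mef2c and Mef2d passed against 5 tissues each, and Mef2c was lower in heart than in spleen, at 13.4, 18.95 and 21.8 CPM in heart and 23.5, 35.4 and 38.6 CPM in spleen.

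Many mitochondrial genes also met the rule. Of the nuclear respiratory chain list 25 of 29 tested members met the rule and of the mitochondrially encoded proteins 11 of 13, beside 6.01% of all genes. Their margins were small, with medians of 1.26 and 0.69. Slc25a4, which exchanges ATP for ADP across the inner membrane, was the exception at 3.41 ± 0.52 (log2, SE, edgeR adjusted p = 0.000159), with 280, 447 and 755 CPM in heart and 20.1, 48.5 and 386 CPM in subscapular fat. mt-Co1, a catalytic subunit of cytochrome oxidase, was the most abundant heart gene by mean, at 7027, 15630 and 20470 CPM in heart and 2094, 4751 and 5763 CPM in kidney (log2 fold change 1.44 ± 0.26, SE, edgeR adjusted p = 0.000168). The 13 mitochondrially encoded proteins took 11.7% to 21.8% of counts outside the abundant features in heart, against 6.80% to 9.52% in kidney and 3.13% to 17.3% in subscapular fat.

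Cytochrome oxidase genes differed by subunit form. Cox6a2, the muscle form of subunit 6a, was at 42.4, 126 and 166 CPM in heart and 0, 2.77 and 51.0 CPM in subscapular fat (log2 fold change 6.16 ± 1.38, SE, edgeR adjusted p = 0.00349). Its ubiquitous form Cox6a1 was at 5.60, 7.78 and 9.91 CPM in heart and 17.5, 30.3 and 39.1 CPM in kidney, lower in heart (log2 fold change -2.09 ± 0.11, SE, edgeR adjusted p = 3.4e-11). Per kilobase, Cox6a2 was 84.6%, 94.2% and 96.4% of the pair in the lowest, median and highest heart, against 0.555%, 9.94% and 36.4% in lung. For subunit 7a the muscle form Cox7a1 was 72.8% of its pair at the heart median, and for subunit 8 the muscle form Cox8b was 82.8%. Cox8b itself did not pass against subscapular fat, a tissue where its share was 52.9% at the median. The Cox7a1 call was lost without pairing by mouse (margin 1.57, largest edgeR adjusted p over the 8 tissues 0.0796). Those of Cox6a2 and Cox7a1 were lost in male mice alone (largest edgeR adjusted p = 0.0643 and 0.447).

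The counts of the fuel lists rose when subscapular fat was left out, though not to all members. All 28 fatty acid uptake and oxidation genes were higher in heart than in skin, lung and spleen, beside 33.5%, 24% and 35.1% of all genes tested. Against kidney 27 were higher, against gonadal fat 24 and against liver 20, beside 24.4%, 25.4% and 29.5% of all genes. Lower in heart than in gonadal fat were 2, beside 27.8%. Against subscapular fat 3 passed, beside 15% of all genes, and so met the rule. These were Fabp3, the fatty acid carrier of muscle, with a margin of 4.88, and the thioesterases Acot2 (1.14) and Acot13 (1.12). The median margin of the 28 was 0.51. Without subscapular fat 17 of the 28 were higher in heart than in the other 7 tissues, beside 8.14% of all genes. In the TCA cycle list the count was 7 of 24 with subscapular fat and 22 of 24 without it, and in the list of oxygen store, phosphocreatine and glycolysis genes 9 and 18 of 27.

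Single genes show the spread behind these counts. Hadha, a subunit of the mitochondrial trifunctional protein of beta-oxidation, was at 98.8, 169 and 270 CPM in heart and 21.1, 66.8 and 440 CPM in subscapular fat (log2 fold change 1.26 ± 0.54, SE, edgeR adjusted p = 0.0946). Ckm, the muscle creatine kinase, was at 79.1, 163 and 331 CPM in heart and 0.179, 32.2 and 1665 CPM in subscapular fat (log2 fold change 5.28 ± 2.48, SE, edgeR adjusted p = 0.131). In each the highest fat library exceeded every heart. Ckmt2, the mitochondrial creatine kinase, did pass, at 87.9, 206 and 339 CPM in heart and 0, 2.54 and 133 CPM in subscapular fat (log2 fold change 7.06 ± 1.52, SE, edgeR adjusted p = 0.00261). Lpl, the lipase that frees fatty acids at the vessel wall, was at 200, 442 and 606 CPM in heart and 254, 400 and 682 CPM in gonadal fat, groups that overlapped almost fully. The part of the muscle and brown fat content of subscapular fat in these results was not tested.

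Several atrial genes varied widely between hearts. Myl7, the atrial regulatory light chain, was at 385, 325, 215, 82.4 and 7.18 CPM in the hearts of mice 3, 45, 18, 68 and 61. In the other 6 hearts (mice 4, 71, 37, 20, 55 and 11) it was at 0.38, 0.371, 0.346, 0.17, 0.0837 and 0 CPM. The 3 highest hearts thus stood well above the rest, and 1 heart had no Myl7 count. Sln, sarcolipin, a pump inhibitor of atria, was at 120, 91.6, 51.7, 28.2 and 1.82 CPM in the hearts of mice 3, 45, 18, 68 and 61 and at most 0.115 CPM in the remaining 6. Myl4, the atrial essential light chain, was at 341, 359, 251, 94.6 and 9.43 CPM in those 5 hearts and at most 0.346 CPM in the remaining 6. Nppa, which encodes atrial natriuretic peptide, was at 945, 617, 451, 48.4 and 30.3 CPM in the 5 and at 1.19 to 5.13 CPM in the other 6. Because the hearts fell into separate levels, no correlation is given.

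The ventricular light chain Myl2 was at 357, 319, 246, 668 and 299 CPM in the hearts of mice 3, 45, 18, 68 and 61. In the hearts of mice 4, 71, 37, 20, 55 and 11 it was at 1090, 1120, 1160, 522, 935 and 965 CPM. Per kilobase Myl2 made up 21.9% to 100% of the sum of Myl2 and Myl7 over the 11 hearts. Both sexes were on both sides, with females 3 and 18 and males 45, 61 and 68 among the hearts with atrial transcripts. The share of atrium in each sample was not given, and its part in these differences was not tested.

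**Figure D4:**
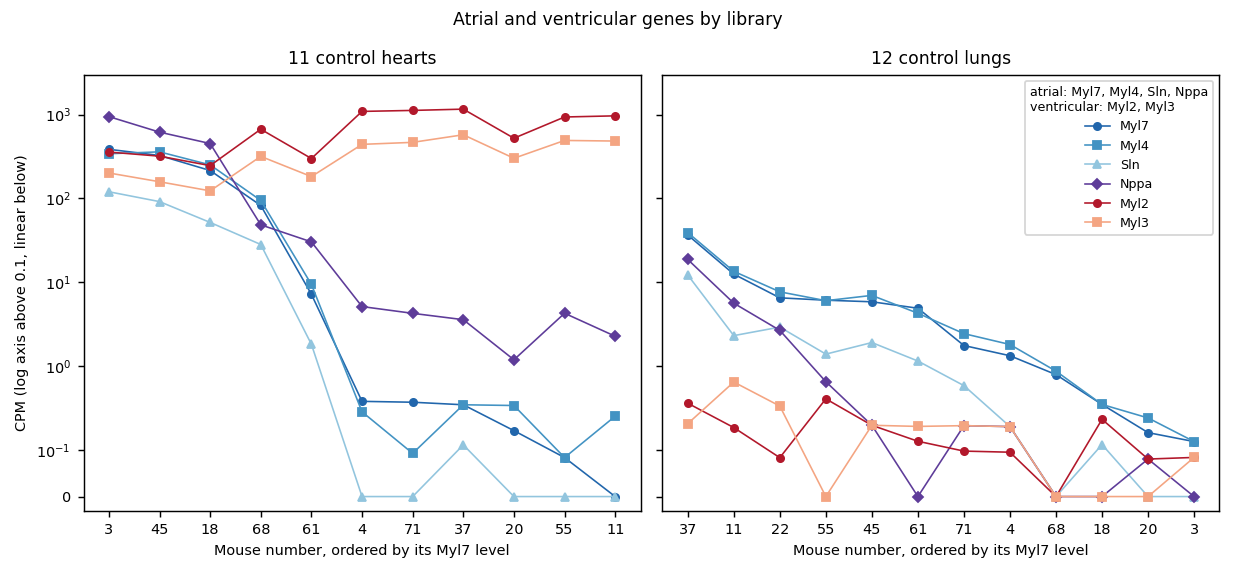
Levels of 4 atrial genes (blue and violet) and 2 ventricular genes (red and orange) in the 11 control hearts (left) and 12 control lungs (right), in CPM on an axis that is logarithmic above 0.1 and linear below. Libraries are ordered by Myl7, which spans 0 to 385 CPM in heart and 0.126 to 36.6 CPM in lung, while Myl2 in lung stays at or below 0.407 CPM.

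Lung was the nearest tissue of the atrial light chains and not of the ventricular ones. In mice the walls of the pulmonary veins carry cardiac muscle of atrial kind. Myl7 was at 0.126, 3.33 and 36.6 CPM in the lowest, median and highest lung and Myl2 at 0, 0.113 and 0.407 CPM, so that Myl2 was 1.33% of the pair per kilobase at the lung median against 99.9% at the heart median. Myl7, Myl4 and Sln did not pass against lung (log2 fold changes 1.14 ± 2.11, 1.05 ± 2.13 and 2.62 ± 1.85, SE, edgeR adjusted p = 0.688, 0.717 and 0.256). With no pairing by mouse their margins were 3.91, 3.86 and 3.82, and all passed. The cardiomyocyte marker sum was 4.30, 44.4 and 284 CPM over the 12 lungs, against 5859, 9238 and 11310 CPM over the hearts, and the source of these lung reads was not tested.

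Of 10 tested atrial genes 2 were heart genes, Nppa (margin 6.79) and Kcnj3 (5.34), and of 7 ventricular genes 6, all except Irx4. The share over all genes tested was 6.01%. Bmp10, also on the atrial list, did not pass the low count filter and was not tested, although its heart mean was 103 CPM. Nppa was called although its hearts overlapped with lung: 1.19, 5.13 and 945 CPM in heart and 0, 0.193 and 18.7 CPM in lung (log2 fold change 6.79 ± 1.91, SE, edgeR adjusted p = 0.00715). Irx4, a ventricular homeobox factor, was at 1.03, 2.59 and 6.45 CPM in heart and 1.59, 2.51 and 4.22 CPM in skin. Of 8 conduction system genes 0 met the rule in edgeR, beside the same 6.01%. Against single tissues, 2 of the 8 were higher in heart than in skin, 3 each than in subscapular fat, gonadal fat and lung, and 6 than in kidney, beside 33.5%, 15%, 25.4%, 24% and 24.4% of all genes. Tbx3, the factor of the sinus node, was at 0.927, 1.42 and 3.63 CPM in heart and 0.712, 8.398 and 12.4 CPM in lung. Of 9 muscle microRNA hosts and long RNAs, Mhrt was the 1 heart gene, and Malat1, a nuclear RNA of all cells, was lower in heart than in kidney (log2 fold change -0.53 ± 0.17, SE, edgeR adjusted p = 0.0162).

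Markers of other cell types differed in how many met the rule, beside 6.01% of all genes tested. Of 8 endothelial markers 0 met the rule, and 5 of them were lower in heart than in lung, beside 28.7% of all genes tested. All 8 were higher in heart than in skin, liver, spleen and bone marrow, beside 33.5%, 29.5%, 35.1% and 39.4% of all genes. Against gonadal fat and kidney 7 were higher, against subscapular fat 6 and against lung 1, beside 25.4%, 24.4%, 15% and 24%. Pecam1, a junction protein of endothelium, was at 22.6, 30.2 and 38.6 CPM in heart and 28.4, 56.4 and 71.5 CPM in lung (log2 fold change -0.69 ± 0.16, SE, edgeR adjusted p = 0.00166). Of 9 fibroblast markers 0 met the rule and 8 were lower in heart than in gonadal fat, beside 27.8% of all genes. Against skin, kidney, liver and spleen 7 of the 9 were higher in heart, beside 33.5%, 24.4%, 29.5% and 35.1%. In skin, kidney and spleen 1 marker each went the other way. All 9 were higher than in bone marrow, beside 39.4%. Against subscapular fat 2 were higher and 4 lower, and against lung 2 were higher and 2 lower. Col3a1, a fibrillar collagen, was at 35.6, 48.1 and 70.1 CPM in heart and 131, 517 and 983 CPM in gonadal fat (log2 fold change -3.23 ± 0.19, SE, edgeR adjusted p = 1.87e-10).

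Of 8 smooth muscle and pericyte markers 4 were heart genes, beside 6.01% of all genes tested. These were Abcc9, Rgs5, Kcnj8 and Acta2, of which Abcc9 is also on the ion channel list. The others, Myh11, Tagln, Cnn1 and Pdgfrb, were each higher in heart than in 4 of the 8 tissues and lower in none. Abcc9 and Kcnj8 encode the sulfonylurea receptor and the pore of an ATP-sensitive potassium channel. Abcc9 was at 45.6, 86.5 and 122 CPM in heart and 9.20, 17.0 and 20.9 CPM in liver (log2 fold change 2.33 ± 0.18, SE, edgeR adjusted p = 1.02e-09). Myh11, the smooth muscle myosin, was at 3.87, 6.81 and 50.7 CPM in heart and 5.23, 20.4 and 30.2 CPM in lung and did not pass (log2 fold change -0.56 ± 0.41, SE, edgeR adjusted p = 0.276). Of 6 erythroid markers 5 were heart genes, beside the same 6.01%. The beta globin Hbb-bs was at 117, 749 and 2330 CPM in heart and 144, 301 and 888 CPM in lung (log2 fold change 1.27 ± 0.32, SE, edgeR adjusted p = 0.00327). Slc4a1, the anion exchanger of red cells, was lower in heart than in spleen (log2 fold change -2.89 ± 0.23, SE, edgeR adjusted p = 1.36e-09). The part of blood in these results was not tested.

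In the opposite direction 218 genes (1.21% of those tested) were lower in heart than in all 8 tissues. The 5 with the largest differences were Rab11fip4, St14, Ehf, Rbm47 and Ccnb1. St14, the epithelial protease matriptase, was at 0, 0 and 0.116 CPM in heart and 5.45, 9.14 and 16.5 CPM in skin (log2 fold change -7.61 ± 0.28, SE, edgeR adjusted p = 1.11e-13), and its smallest difference was -2.95, against liver. Ehf, an epithelial ETS factor, was at most 0.0927 CPM in heart, with a smallest difference of -2.75 against bone marrow. Rbm47, an RNA-binding protein of epithelia, was at 0, 0.371 and 1.30 CPM in heart and 20.9, 27.7 and 33.7 CPM in kidney (log2 fold change -6.14 ± 0.27, SE, edgeR adjusted p = 1.78e-12). Rab11fip4, an effector of vesicle recycling, was at most 0.433 CPM in heart. Several of these values rest on heart counts at or near 0, so the fitted differences depend on the prior count.

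Ccnb1, cyclin B1, which drives entry into mitosis, was at 0, 0 and 0.193 CPM in heart and 2.45, 4.07 and 5.23 CPM in bone marrow (log2 fold change -7.15 ± 0.34, SE, edgeR adjusted p = 1.01e-12). Of 7 cell cycle markers Ccnb1 was the 1 that was lower than in all 8 tissues, and that call was at the edge of the threshold. Its largest adjusted p over the 8 tissues was 0.0489 (edgeR). Its smallest difference was -2.25, against liver, and rests on heart counts at or near 0. All 7 were lower in heart than in skin, gonadal fat, spleen and bone marrow, beside 29.4%, 27.8%, 32.9% and 38.3% of all genes tested. Of the 7, 3 were lower in heart than in lung and 3 lower than in kidney, beside 28.7% and 25.4%, 2 than in subscapular fat, beside 13.8%, and 1 than in liver, beside 24.8%. Mki67, the proliferation antigen, was at 0.509, 1.26 and 2.71 CPM in heart and 85.3, 99.7 and 122 CPM in bone marrow (log2 fold change -6.32 ± 0.20, SE, edgeR adjusted p = 5.76e-15).

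The anti-PAPP-A mice gave hearts that had no part in choosing the genes. In 9 of these 10 mice the same 8 comparisons called 732 genes (4.07%), and 679 of the 1079 control heart genes were among them (62.9% of the control set and 92.8% of the anti-PAPP-A set). The margin in anti-PAPP-A mice was above 0 for 1076 of the 1079 (99.7%), beside 12.9% of all genes tested, and its median was 0.98 in anti-PAPP-A mice against 1.09 in control mice. With subscapular fat left out of both arms, 1240 of 1463 control genes (84.8%) were called in anti-PAPP-A mice. Of the contractile lists, 8 of the 9 thin filament, 6 of the 11 thick filament, 11 of the 18 Z disc and 12 of the 14 calcium handling heart genes were called again. Of the mitochondrial lists, 16 of the 25 nuclear respiratory chain and 5 of the 11 mitochondrially encoded heart genes were. With subscapular fat left out of both arms, 9 of 9 thin filament, 11 of 11 thick filament, 20 of 20 Z disc and 16 of 16 calcium handling genes were called again. The same held for 29 of 29 nuclear respiratory chain and 11 of 12 mitochondrially encoded genes. Ttn did not pass there against subscapular fat (log2 fold change 1.85 ± 1.44, SE, edgeR adjusted p = 0.425), and Myl2 passed with a margin of 7.81 ± 1.53. The heart of anti-PAPP-A mouse 56 was left out of these counts, because its cardiomyocyte markers summed to 348 CPM, with 470 CPM of thymus markers and 212 CPM of cell cycle markers. With it kept, 443 genes were called. The skin of anti-PAPP-A mouse 36 was also low in keratinocyte markers (a mean of 4.84 on the log2(CPM + 1) scale against a skin median of 7.96) and the gonadal fat of mouse 58 in white adipocyte markers (4.24 against 6.87). The skin of mouse 36 had 308 genes with at least 10 counts, against 4451 to 13909 in control skins. This skin and the gonadal fat of mouse 58 were kept, and 737 genes were called without them.

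**Figure D5:**
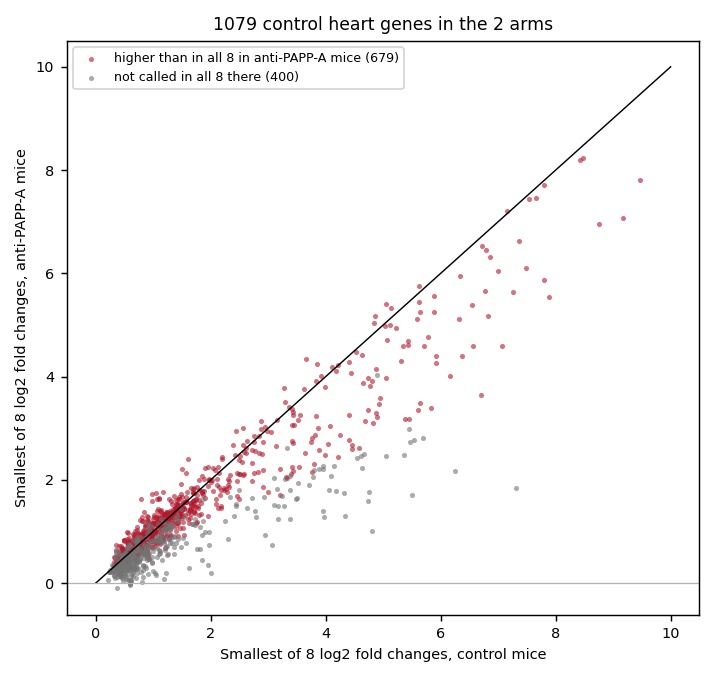
The margin of each of the 1079 control heart genes in anti-PAPP-A mice (vertical) against its margin in control mice (horizontal), both as log2 fold changes. Red points are the 679 genes called again against all 8 tissues in anti-PAPP-A mice, grey points the other 400, and the line marks equal margins.

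Within heart, anti-PAPP-A and control mice were compared directly with sex as a covariate. Of 11242 genes 0 passed (0.0%) in edgeR and 0 in DESeq2, with 250 (2.22%) at an unadjusted p below 0.05, and the smallest adjusted p was 1. Among the 1072 heart genes tested 8 (0.746%) had an unadjusted p below 0.05. Their median log2 fold change was 0.05, against 0.00 over all genes. Myh6 was at 1589, 3637 and 4695 CPM in 9 anti-PAPP-A hearts and 2310, 3341 and 4546 CPM in control hearts (log2 fold change 0.05 ± 0.16, SE, edgeR adjusted p = 1). Nppa ranged from 1.19 to 857 CPM in anti-PAPP-A hearts and from 1.19 to 945 CPM in control hearts (log2 fold change -0.89 ± 1.69, SE, edgeR adjusted p = 1). The smallest p-values belonged to Nudc, Mppe1 and Vps8, with log2 fold changes of 0.38 ± 0.11, 0.49 ± 0.14 and 0.32 ± 0.09, and to Egfr, Champ1 and Slc8b1, with -0.48 ± 0.12, -0.60 ± 0.17 and -0.65 ± 0.20 (SE).

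Between 5 female and 6 male control hearts 11 of 12017 genes (0.0915%) passed in edgeR, and none of the 1079 heart genes was among them. In that comparison 58 heart genes (5.38%) and 4.55% of all genes had an unadjusted p below 0.05. Xist, the RNA that silences an X chromosome, was higher in female hearts (log2 fold change 7.88 ± 0.30, SE, edgeR adjusted p = 2.97e-09), and the Y-linked Ddx3y was lower (-10.8 ± 0.43, SE, edgeR adjusted p = 1.4e-06). Kdm5c, an X-linked gene that escapes silencing, was higher in female hearts by 0.98 ± 0.15 on the log2 scale (SE, edgeR adjusted p = 0.0173). Lrrc10 had a log2 fold change of 0.70 ± 0.18 between female and male hearts that did not pass (SE, edgeR adjusted p = 0.567).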

How the data were processed

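The authors deposited 1 table of read counts per gene for all 198 libraries, as whole numbers. Per the submitters' processing notes, FastQC 0.11.5, Salmon and mm10 were used. Neither the step from Salmon estimates to whole counts nor the strandedness used is stated in these sources. Per the labels' protocols, libraries were stranded total RNA from 100 ng with 12 PCR cycles.

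Counts were tested as deposited with edgeR 4.0.16 (R 4.3.3) quasi-likelihood fits, TMM scaling, filterByExpr with a minimum count of 10, and Benjamini-Hochberg adjustment over all genes tested, at 0.05. Each tissue had its own fit, with mouse as a block because the labels give the mouse of every library. The median correlation of deviations between libraries of 1 mouse was 0.0638. Each mouse is 1 replicate. CPM values use TMM-scaled library sizes. Depth outside the abundant features limits genes of low level. Fold changes against tissues at 0 depend on the prior count. The SE given with edgeR fold changes is the absolute log2 fold change divided by the square root of the F statistic. It is approximate, above all where counts are at or near 0. Alternatives used DESeq2 1.42.0 and limma 3.58.1, and tables and figures Python 3.11.15 with pandas 2.3.3, numpy 2.4.6, scipy 1.17.1 and matplotlib 3.10.9. The tests were checked on simulated data, where the rule called 47% of the genes raised 2-fold in heart and 90% of those raised 4-fold. There each gene had the same mean and the same spread in every tissue, apart from the raise, and no mouse effect. Only genes with a mean expected count of at least 10 were raised. Real levels and spreads differed between tissues, so these percentages do not give the share found in the real data. Promoters and microRNAs are from RefSeq (GRCm38.p6).

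The members and the gene lists were chosen with earlier results of these data known. Genes were named as the 15 largest margins with at least 5 CPM in heart, the 5 most abundant heart genes, up to 6 heart genes and 4 others per list, all atrial, ventricular and oxidase isoform genes, the 5 genes farthest below all tissues, and the 3 smallest p-values each way between arms and sexes. The paralog pairs, the marker genes named, the 4 promoters and the comparison without subscapular fat were chosen after values were seen. Planned correlations between chamber genes are not given, because hearts fell into separate groups. Some results of named genes are not reported here.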

Additional observations from a re-analysis of the deposited data

Results flagged for a closer look

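Among the 10 anti-PAPP-A hearts, 20 marker sums were screened for a single heart far from the others by Dixon's gap rule. Chance meets the rule in about 1 in 20 groups of normally distributed values. The sums were not log-transformed and their distribution was not tested, so that rate may not hold here. The heart of mouse 56, left out of the comparisons above, stood apart in thymus markers (470 CPM, next highest 10.4), T and B cell markers (235 CPM, next 50.2), cell cycle markers (212 CPM, next 6.57), Schwann cell and nerve markers (14.8 CPM, next 7.37) and keratinocyte markers (5.10 CPM, next 1.29).

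The heart of mouse 58 stood apart in erythroid markers (6880 CPM, next 2070), spleen markers (1120 CPM, next 443) and epicardium and mesothelium markers (50.9 CPM, next 19.1). The spleen and erythroid lists share the alpha globin gene Hba-a1, so the spleen value is not a finding separate from the erythroid one: in the 11 control hearts Hba-a1 was at 71.6, 273 and 660 CPM in the lowest, median and highest, against spleen marker sums of 72.25, 276.1 and 669.5 CPM. The heart of mouse 33 had 15.9 CPM of hepatocyte markers (next 8.09), and the heart of mouse 41 had 27.0 CPM of kidney tubule markers (next 9.75).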

How the results depend on the processing

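The number of heart genes, 1079 in the paired edgeR fits, was 1106 with DESeq2, 1128 with limma-voom, 1043 with RLE size factors, 1264 with no low count filter, 1065 with no replicate block (no pairing by mouse), 895 in female mice only and 432 in male mice only, 583 at a log2 fold change of at least 1, and 1463 with subscapular fat left out, a setting added after seeing the data. Genes lower than in all 8 tissues, 218, were 349 in 1 fit over 9 tissues, 78 in female and 56 in male mice only. Calls against subscapular fat, 5179, were 3233 in female and 2521 in male mice only. In anti-PAPP-A mice, 732 became 1367 with subscapular fat left out and 443 with the heart of mouse 56 kept. Between sexes 11 became 20 with DESeq2. The cause of these changes was not tested. Of the margins of 40 named genes under the alternatives, 415 stayed on their side of the threshold, 16 lost and 9 gained the call. Among genes that met the rule in the main fits 0 changed sign, and sign changes of the other genes were not counted. For each gene the log2 fold change was compared with that of the main fits. The median of these changes over genes was at most 0.101 in size, against bone marrow with no low count filter.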
